A study of Mus musculus with 12 samples.

Results

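The BCL2 family genes that set the balance between survival and mitochondrial death were followed in mouse CD4 T helper cells with and without the activating receptor NKG2D. The set was a fixed list of 10 symbols: the survival genes Bcl2, Bcl2l1, Mcl1, Bcl2a1b and Bcl2a1d, the pore-forming effectors Bax and Bak1, and the BH3-only genes Bcl2l11, Bbc3 and Pmaip1. Of these 10 members, 9 were found by Ensembl ID among the 39179 gene IDs of the count tables, and Bcl2a1d was not analysed here, nor was its close copy Bcl2a1a. All 9 had enough counts to be tested.

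Naive CD4 T cells came from lymph node and spleen of OT-II mice (C57BL/6 x OT-II), whose transgenic receptor sees the ovalbumin peptide OVA323-339, and of OT-II x NKG2D-/- mice. Cells of both genotypes shared a culture with peptide, a-CD28 and antigen-presenting cells. Th1 cultures contained IL-12 with IL-2 and the blocking antibody a-IL-4. Th17 cultures contained IL-6, IL-1b and IL-23 with the blocking antibodies a-IL4 and a-IFNg, and IL-12 was added after the second stimulation, so the Th17 groups describe cells polarized as Th17 and then exposed to a Th1 cytokine. Cells were polarized on day 0 and day 5 and harvested on day 8. Thy1.2+ NKG2D+ cells were sorted as wild type (WT) and Thy1.1+ cells of the OT-II x NKG2D-/- strain as knockout (KO). WT and KO cells of both cultures thus form 4 groups of 3 libraries each. Loss of NKG2D cannot be told apart from the NKG2D gate or the Thy1 allele, because WT and KO cells differed in these as well. The same holds for any other difference between the OT-II and OT-II x NKG2D-/- strains. The labels do not name separate animals or cultures for the replicates, so p-values reflect no more than the spread among these libraries, and that spread may be technical.

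Proteins of this family decide whether the outer mitochondrial membrane stays closed. The survival proteins BCL2, BCL-xL (Bcl2l1), MCL1 and A1 (the Bcl2a1 genes) hold BH3-only proteins and activated BAX and BAK in check, whereas free BAX and BAK form the pore that lets cytochrome c out. The BH3-only protein BIM (Bcl2l11) is known for the death of T cells after cytokine withdrawal and at the end of a response, and PUMA (Bbc3) and NOXA (Pmaip1) for death downstream of p53.

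Bcl2l11 and Bcl2 gave the widest differences between the 4 groups among the abundant members, so the reference sequence before their start sites is shown. The sequences are the 250 bases upstream of the RefSeq start on GRCm38.p6, 5′ to 3′ on the gene's strand, at chr2:128125788-128126037 (plus strand) for Bcl2l11 and chr1:106714291-106714540 (minus strand) for Bcl2. Capitals mark matches to the FOXO motif GTAAACA or the SP1 motif GGGCGG on either strand.
Bcl2l11: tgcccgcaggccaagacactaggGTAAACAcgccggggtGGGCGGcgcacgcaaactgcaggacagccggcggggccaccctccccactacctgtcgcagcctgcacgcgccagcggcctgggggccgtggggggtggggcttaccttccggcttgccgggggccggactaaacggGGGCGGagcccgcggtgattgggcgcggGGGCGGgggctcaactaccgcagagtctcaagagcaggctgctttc
Bcl2: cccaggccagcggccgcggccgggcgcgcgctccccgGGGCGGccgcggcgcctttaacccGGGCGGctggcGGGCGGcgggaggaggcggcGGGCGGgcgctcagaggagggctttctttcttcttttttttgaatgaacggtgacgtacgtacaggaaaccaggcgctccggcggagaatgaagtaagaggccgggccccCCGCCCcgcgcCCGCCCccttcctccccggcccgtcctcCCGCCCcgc
The Bcl2l11 window held GTAAACA once, at -227 to -221 from the start, and GGGCGG at 3 places. Of the 9 members with a window in the RefSeq table, Bcl2l11 alone held GTAAACA, a motif found in 3.16% of all 32817 promoter windows of the same length. GGGCGG was in the windows of 7 of these 9 members (Bcl2a1d among them) and in 32.7% of all windows. The STAT motif TTCNNNGAA, in 7.01% of all windows, was in 0 of the 9, and the E-box CACGTG, in 6.02%, was in the window of Bax only. Both strands were searched, and none of these motifs overlapped another in the windows printed. A match describes letters only and is no evidence of binding.

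Sequencing depth differed between the libraries. The 6 Th1 libraries and 3 of the 6 Th17 libraries held between 9108203 and 12688637 gene counts. The other 3 were shallow: Th17 WT 2 held 2731909, Th17 WT 3 held 1647232 and Th17 KO 2 held 1722228, and 18.3% to 51.0% of their counts fell on the single ID ENSMUSG00000045999. Levels are library-size-scaled counts with TMM factors (CPM), and 3 counts corresponded to 0.208 to 3.15 CPM, a limit that covers counting error only. Klrk1, which encodes NKG2D, was at 128 to 161 CPM in WT libraries and at most 5.63 CPM in KO libraries, so the genotype labels held. The 4 CD4 T cell markers summed to between 8135 and 9682 CPM in every library. Th1 markers (Tbx21, Ifng) summed to 602 to 995 CPM in Th1 and 104 to 337 CPM in Th17 libraries. Ifng carried this difference, at means of 748 (WT) and 647 CPM (KO) in Th1 against 195 and 55.0 CPM in Th17. Tbx21 was not lower in Th17, with means of 74.0 (WT) and 55.3 CPM (KO) in Th1 against 94.0 and 63.6 CPM. The Th17 cytokine gene Il17f had at most 1 count in any Th1 library and lay at 1.04 to 3.73 CPM in Th17 WT libraries and 8.40 to 14.2 CPM in Th17 KO libraries. Of markers of other cells, all 4 B cell markers together stayed at 0.145 to 4.03 CPM and the 6 dendritic cell and macrophage markers at 4.51 to 9.45 CPM. The 4 NK cell markers stayed at 0.284 to 1.05 CPM, with Ncr1 at 0 counts throughout, and the 2 CD8 T cell markers at 1.04 to 6.61 CPM. The 4 MHC class II genes, a mark of antigen-presenting cells, were higher, at 13.2 to 17.2 CPM in Th1 and 62.3 to 92.1 CPM in Th17 libraries.

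**Figure D1:**
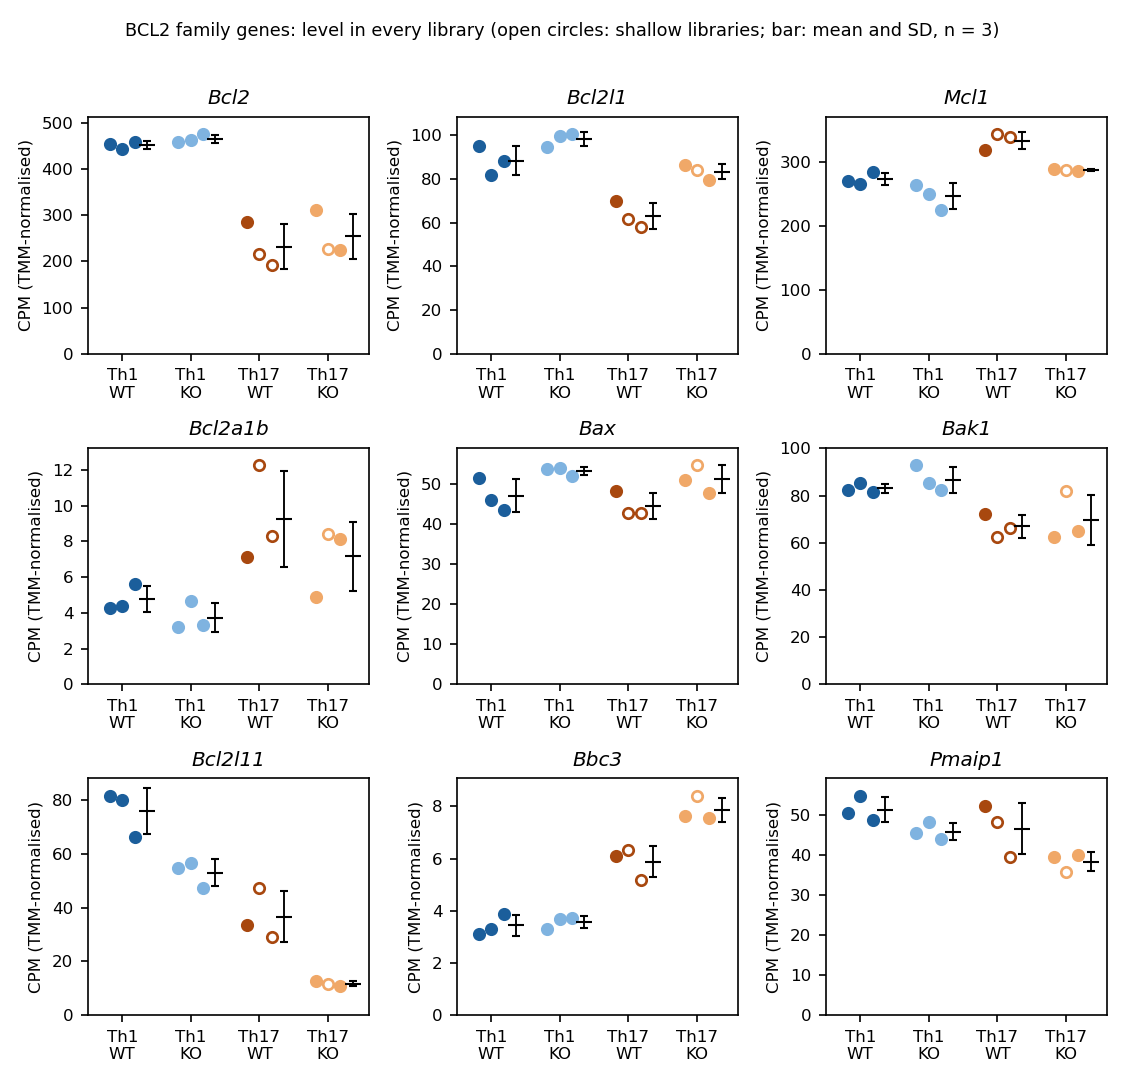
TMM-normalised CPM (linear axes from 0) of the 9 members in each of the 12 libraries, by group, with the group mean and SD (n = 3) beside the points and open circles for the 3 shallow libraries. Bcl2l11 steps down from 76.1 CPM on average in Th1 WT to 11.7 CPM in Th17 KO, Bcl2 differs mainly between Th1 and Th17, and Bax stays between 42.6 and 54.6 CPM in all libraries.

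The survival gene Bcl2 (ENSMUSG00000057329, chromosome 1, 106538178 to 106714274, GRCm38) was at 455, 443 and 459 CPM in Th1 WT and 459, 464 and 476 CPM in Th1 KO. In Th17 WT it was at 286, 216 and 192 CPM and in Th17 KO at 311, 227 and 226 CPM. All Th17 libraries lay below all Th1 libraries, and within each culture the genotypes overlapped. The highest Th17 values came from the deep libraries Th17 WT 1 and Th17 KO 1.

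Bcl2l1 (ENSMUSG00000007659, chromosome 2, 152780668 to 152831728), which encodes BCL-xL, was at 95.3, 81.8 and 88.2 CPM in Th1 WT and 94.7, 99.7 and 100.4 CPM in Th1 KO. Its level was 69.8, 61.7 and 58.1 CPM in Th17 WT and 86.6, 84.0 and 79.6 CPM in Th17 KO. The Th1 genotypes overlapped, whereas the Th17 KO libraries all exceeded the Th17 WT libraries.

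Mcl1 (ENSMUSG00000038612, chromosome 3, 95658788 to 95663176), which encodes a short-lived survival protein that T cells need, was at 270.5, 266 and 284 CPM in Th1 WT and 265, 250.1 and 224 CPM in Th1 KO. Among the Th17 libraries, WT had 319, 343 and 338 CPM and KO had 289, 288 and 286 CPM. It was the one abundant survival gene with higher levels in the Th17 than in the Th1 libraries, and in both cultures the KO libraries lay below the WT libraries.

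Bcl2a1b (ENSMUSG00000089929, chromosome 9, 89199209 to 89207827), a gene for the survival protein A1, was low, at 4.28, 4.39 and 5.62 CPM in Th1 WT and 3.21, 4.66 and 3.31 CPM in Th1 KO. In Th17 WT it was at 7.12, 12.3 and 8.31 CPM and in Th17 KO at 4.91, 8.40 and 8.15 CPM. The shallow libraries held only 8 to 31 of its counts. Both genotypes overlapped in both cultures.

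Bcl2a1b has near-identical copies, so its level is uncertain. The first 75 coding bases, found as the longest reading frame of the GENCODE M21 transcripts, show how little separates it from Bcl2a1d, with capitals where the sequences differ.
Bcl2a1b: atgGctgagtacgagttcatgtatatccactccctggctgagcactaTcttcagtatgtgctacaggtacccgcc
Bcl2a1d: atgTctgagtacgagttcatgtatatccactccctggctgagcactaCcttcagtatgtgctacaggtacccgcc
Over all 519 coding bases 6 differed (98.8% identity). Of the 743 windows of 75 bases in Bcl2a1b transcripts, 508 (68.4%) also occurred in Gm29094, Bcl2a1d or Bcl2a1a, and 49.1% of its exon bases lay in exons of Gm29094. How the counting treated reads that fit several genes is not given in the sources used here. No window of Bcl2l11, Bcl2l1, Mcl1, Bbc3 or Pmaip1 was shared with another gene, against 4.67% for Bcl2, 6.84% for Bax and 12.8% for Bak1. Exons of Bcl2 (6.09% of bases) and Bak1 (25.5%) overlap a gene on the opposite strand, and the library method does not mark strand.

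The effector Bax (ENSMUSG00000003873, chromosome 7, 45461697 to 45466898) was at 51.5, 45.8 and 43.5 CPM in Th1 WT and 53.6, 53.9 and 51.9 CPM in Th1 KO. Its Th17 levels were 48.2, 42.7 and 42.6 CPM (WT) and 51.0, 54.6 and 47.7 CPM (KO). Bax was the most even member across the 4 groups, although in Th1 each KO library was above each WT library.

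Bak1 (ENSMUSG00000057789, chromosome 17, 27019810 to 27029009), the other effector, was at 82.6, 85.3 and 81.5 CPM in Th1 WT and 92.9, 85.3 and 82.2 CPM in Th1 KO. Among the Th17 libraries, WT had 72.2, 62.5 and 66.5 CPM and KO had 62.4, 81.9 and 65.0 CPM. The genotypes overlapped in both cultures, and the highest Th17 value came from the shallow library Th17 KO 2.

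Bcl2l11 (ENSMUSG00000027381, chromosome 2, 128126038 to 128162547), which encodes BIM, was at 81.7, 80.3 and 66.3 CPM in Th1 WT and 54.9, 56.8 and 47.5 CPM in Th1 KO. It was at 33.6, 47.5 and 29.1 CPM in Th17 WT and at 12.6, 11.6 and 11.0 CPM in Th17 KO. The 4 groups formed 4 steps without overlap, although the highest Th17 WT library was level with the lowest Th1 KO library. As raw counts Th1 WT held 955 to 1126, Th1 KO 581 to 818, Th17 WT 28 to 396 and Th17 KO 11 to 162, with the lowest counts in the shallow libraries.

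Bbc3 (ENSMUSG00000002083, chromosome 7, 16308393 to 16318205), which encodes PUMA, was the lowest member per length in 3 of the 4 groups. It was at 3.12, 3.29 and 3.89 CPM in Th1 WT and 3.31, 3.68 and 3.71 CPM in Th1 KO, then 6.10, 6.33 and 5.19 CPM in Th17 WT and 7.63, 8.40 and 7.56 CPM in Th17 KO. Every Th17 library exceeded every Th1 library, and in Th17 the KO libraries exceeded the WT libraries. In the shallow libraries these values rest on 5 to 16 counts.

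Pmaip1 (ENSMUSG00000024521, chromosome 18, 66458533 to 66465565), which encodes NOXA, a BH3-only protein that binds MCL1 and A1, was at 50.4, 54.8 and 48.8 CPM in Th1 WT and 45.4, 48.2 and 43.9 CPM in Th1 KO. It was at 52.1, 48.3 and 39.5 CPM in Th17 WT and 39.4, 35.7 and 39.9 CPM in Th17 KO. The Th1 genotypes did not overlap, while Th17 WT 3 lay inside the Th17 KO range.

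Levels of different genes were compared as CPM per kilobase of exon. Mcl1 was the most abundant member in every group, with 80.1 ± 2.79 for WT and 72.1 ± 5.97 for KO in Th1, and 97.6 ± 3.71 for WT and 84.2 ± 0.495 for KO in Th17 (SD, n = 3). In Th1 WT it was followed by Bcl2 at 49.4 ± 0.934, Bak1 at 34.5 ± 0.817 and Bax at 29.8 ± 2.61, which did not overlap one another. Bcl2l1 (19.3 ± 1.47) and Pmaip1 (18.8 ± 1.13) came next and overlapped, then Bcl2l11 (9.48 ± 1.06), Bcl2a1b (5.83 ± 0.911) and Bbc3 (1.62 ± 0.189). In Th1 KO the order was the same, with Bak1 and Bax overlapping. In Th17 WT, Bax (28.2 ± 2.04), Bak1 (27.9 ± 2.03) and Bcl2 (25.3 ± 5.34) could not be put in an order beyond their spread, nor could Pmaip1 (17.1 ± 2.37) and Bcl2l1 (13.8 ± 1.31), or Bcl2l1 and Bcl2a1b (11.3 ± 3.30). Bcl2l11 followed at 4.57 ± 1.19, above Bbc3. In Th17 KO, Bcl2l11 was the least abundant of all 9, at 1.46 ± 0.102, below Bbc3 at 3.70 ± 0.220.

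**Figure D2:**
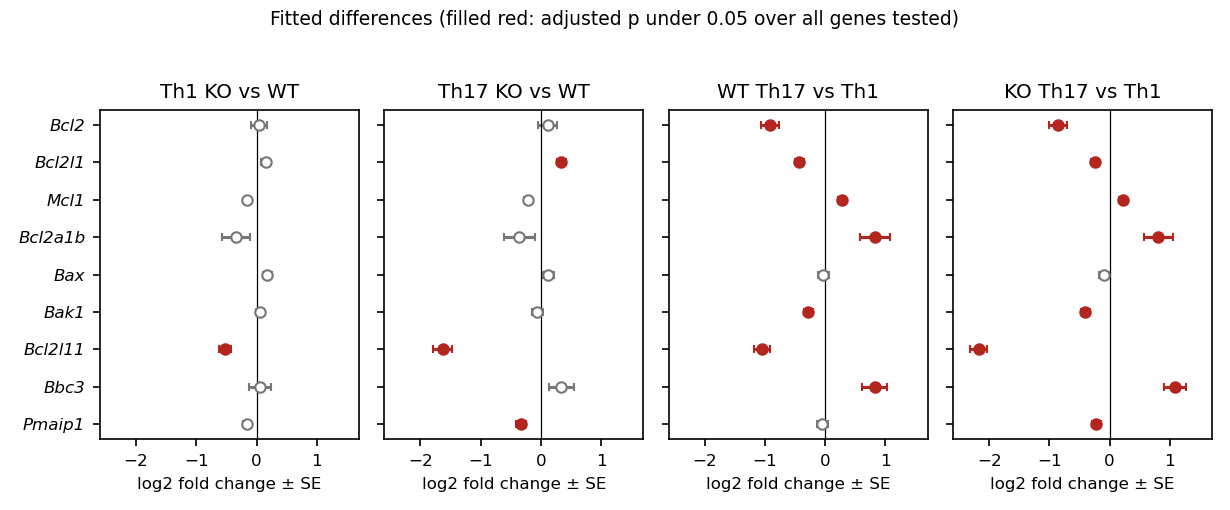
Fitted log2 fold change with its SE for the 9 members in the 2 genotype comparisons (positive means higher in KO) and the 2 culture comparisons (positive means higher in Th17), from edgeR with 3 libraries per group; filled red points had an adjusted p under 0.05. Bcl2l11 passed in all 4 panels and always downward, from -0.52 in the Th1 genotype comparison to -2.17 between the cultures in KO.

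Comparing KO with WT in Th1 cells asks whether cells without NKG2D carry a different set of survival and death transcripts. Bcl2l11 fell in the KO, from 76.1 ± 8.54 to 53.1 ± 4.94 CPM (SD, n = 3), and was the only member of 9 to pass edgeR's quasi-likelihood test, in which 4.61% of all 12189 genes passed (2.92% in the lower direction). Its log2 fold change was -0.52 (SE 0.10, adjusted p = 0.00452), lower in 3 of 3 KO libraries than in any WT library. The call held in all 19 alternative fits, with a log2 fold change of -0.61 to -0.44 and an adjusted p of 6.89e-10 to 0.034. In these bulk samples fewer cells that express a gene and less of its RNA per cell cannot be told apart.

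Among the survival genes in Th1, Bcl2 gave a log2 fold change of 0.04 ± 0.14 (SE, adjusted p = 0.94), Bcl2l1 0.15 ± 0.07 (adjusted p = 0.241), Mcl1 -0.15 ± 0.06 (adjusted p = 0.186) and Bcl2a1b -0.34 ± 0.23 (adjusted p = 0.503). The effectors gave 0.18 ± 0.07 for Bax (adjusted p = 0.18) and 0.06 ± 0.07 for Bak1 (adjusted p = 0.76). The other BH3-only genes gave 0.06 ± 0.18 for Bbc3 (adjusted p = 0.936) and -0.16 ± 0.07 for Pmaip1 (adjusted p = 0.25). None of these 8 passed in any of the 19 alternatives. The CPM ranges of the genotypes did not overlap for 4 of 9 (Bcl2l11, Mcl1, Pmaip1 and Bax), against 24.5% of all genes. The members' median log2 fold change was 0.04, beside 0.00 over all genes tested.

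In Th17 cells, the genotype comparison asks the same of cells that had seen both Th17 and Th1 cytokines. Bcl2l11 fell 3.10-fold, from 36.7 ± 9.59 to 11.7 ± 0.819 CPM, Bcl2l1 rose from 63.2 ± 5.98 to 83.4 ± 3.52 CPM, and Pmaip1 fell from 46.6 ± 6.49 to 38.3 ± 2.29 CPM. These 3 of 9 members passed the quasi-likelihood test (1 higher, 2 lower), in which 5.83% of all genes passed (1.81% higher, 4.02% lower). For Bcl2l11 the log2 fold change was -1.63 (SE 0.16, adjusted p = 4.01e-06), rank 32 of 12189 genes by p, and it passed in all 19 alternatives (-1.82 to -1.48, adjusted p 1.52e-39 to 0.000158). Those ranges include the fit without the 3 shallow libraries, where the 1 remaining Th17 WT library is taken to vary as the other groups do.

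The other calls in Th17 were small and depended on single libraries. Bcl2l1 gave 0.34 ± 0.08 (SE, adjusted p = 0.0132), higher in 3 of 3 KO libraries, but did not pass without Th17 KO 1 (adjusted p = 0.0857), without Th17 WT 2 (0.0718), without the shallow libraries (log2 fold change 0.25, adjusted p = 0.211), with limma-voom (0.0547) or with the Th17 groups alone (0.0521). Pmaip1 gave -0.33 ± 0.09 (adjusted p = 0.0333) and lost its call in 10 of 19 alternatives. It did so with DESeq2 (0.149), limma-voom (0.124) and the Th17 groups alone (0.12), and without Th17 WT 1 (-0.21, 0.414), WT 2 (0.0681), KO 1 (0.111), KO 2 (0.0547), KO 3 (0.086), Th1 KO 2 (0.0525) or Th1 WT 2 (0.051). The call for Bcl2l11 is therefore the only one of the 3 that held throughout. With limma-voom or the Th17 groups alone, or without Th17 KO 1 or Th17 WT 2, it was the only member to pass.

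Mcl1 was near the threshold in Th17, from 334 ± 12.7 CPM in WT to 288 ± 1.69 in KO, with -0.21 ± 0.07 (SE, adjusted p = 0.0628, and 0.0474 without Th1 KO 3). Bcl2 gave 0.11 ± 0.15 (adjusted p = 0.795), and its sign changed without Th17 KO 1 (-0.08) or the shallow libraries (-0.10). Bcl2a1b gave -0.36 ± 0.26 (adjusted p = 0.525) and Bbc3 0.34 ± 0.21 (adjusted p = 0.431). The effectors gave 0.12 ± 0.09 for Bax (adjusted p = 0.596) and -0.06 ± 0.09 for Bak1 (adjusted p = 0.828). For Bak1 the mean CPM was 67.0 in WT and 69.8 in KO. Ranges did not overlap for 4 of 9 members (Bcl2l1, Bcl2l11, Mcl1 and Bbc3), against 18.5% of all genes, and the median log2 fold change was -0.06 for the members and 0.00 for all genes.

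Several other measures did not overlap between Th17 KO and WT libraries. CD4 T cell markers summed to 8628 to 9682 CPM in WT and 8135 to 8329 CPM in KO, and Il17f, given above, was higher in KO. Of the CD4 markers, Trac (means of 8095 and 7177 CPM) and Cd4 (678 and 577 CPM) were lower in KO. Cd3e (117 and 121 CPM) and Cd3g (326 and 325 CPM) overlapped between the genotypes. Th1 markers summed to 249 to 337 CPM in WT and 104 to 132 CPM in KO. Ifng (means of 195 and 55.0 CPM) was lower in KO, whereas Tbx21 (94.0 and 63.6 CPM) overlapped between the genotypes. B cell markers summed to 0.763 to 1.19 CPM in WT and 1.87 to 4.03 CPM in KO. In the shallow libraries 3 counts corresponded to 1.19 to 3.15 CPM, and each B cell sum there lay at or below its library's level. The 4 MHC class II genes summed to 62.3 to 81.5 and 84.5 to 92.1 CPM. Of these, Cd74 rose from 35.4 to 52.6 CPM on average. H2-Ab1 (31.6 and 32.1 CPM), H2-Aa (1.23 and 0.872 CPM) and H2-Eb1 (1.21 and 1.98 CPM) overlapped between the genotypes. Mitochondrial genes took 16.9% to 18.6% of the counts in WT, leaving out the dominant ID, and 19% to 20.8% in KO. Their part in the BCL2 family differences was not tested.

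The genotype difference in Bcl2l11 was larger in Th17 than in Th1 cells. The difference between the genotype differences was -1.11 ± 0.19 (log2 difference ± SE, adjusted p = 0.00721), and Bcl2l11 was the only one of 9 members to pass, with 0.591% of all genes passing. It missed the threshold in 1 of 18 alternatives, without Th17 KO 3 (-1.03, adjusted p = 0.0599), and its range over the alternatives was -1.30 to -0.96. The other 8 members gave values between -0.17 (Pmaip1) and 0.28 (Bbc3), all with an adjusted p of at least 0.607.

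Averaged over both cultures, 4 of 9 members differed between the genotypes, against 9.83% of all genes (3.19% higher, 6.64% lower). Bcl2l11 was lower in KO (-1.07 ± 0.09, adjusted p = 5.41e-07), as were Pmaip1 (-0.25 ± 0.06, adjusted p = 0.0065) and Mcl1 (-0.18 ± 0.05, adjusted p = 0.00909), and Bcl2l1 was higher (0.25 ± 0.05, adjusted p = 0.00282). Pmaip1 lost its call without Th17 WT 1 (adjusted p = 0.119) and Mcl1 without the shallow libraries (-0.15, adjusted p = 0.0802). Bax gave 0.15 (adjusted p = 0.118) and passed without Th1 WT 1 (0.18, adjusted p = 0.0482). Bcl2, the antagonist of BIM with the highest level after Mcl1 in Th1 cells, gave 0.08 ± 0.10 (adjusted p = 0.755).

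The culture comparison asks how the survival set differs between Th1 cells and Th17 cells exposed to IL-12. In WT, Th17 cells had less Bcl2 (453 ± 8.55 against 232 ± 48.9 CPM), less Bcl2l1, less Bak1 and less Bcl2l11, and more Mcl1, Bcl2a1b and Bbc3. In all, 7 of 9 members passed (3 higher, 4 lower in Th17), where 47.1% of all genes did (23.5% higher, 23.6% lower), so a call in this comparison is common. On the log2 scale Bcl2 fell by 0.92 (adjusted p = 0.000599, SE 0.15), Bcl2l1 by 0.43 (SE 0.08, adjusted p = 6.77e-05), Bak1 by 0.28 (SE 0.08, adjusted p = 0.00618) and Bcl2l11 by 1.05 (SE 0.13, adjusted p = 1.77e-06). Mcl1 rose by 0.28 (SE 0.06, adjusted p = 0.000723), Bcl2a1b by 0.83 (SE 0.25, adjusted p = 0.00721) and Bbc3 by 0.82 (SE 0.21, adjusted p = 0.00215). Bax (-0.03, adjusted p = 0.995) and Pmaip1 (-0.05, adjusted p = 0.874) did not pass.

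Calls of 3 of these 7 members ended in single alternatives: Bcl2a1b without Th17 WT 2 (adjusted p = 0.0654) or the shallow libraries (0.58, adjusted p = 0.115), Bak1 without the shallow libraries (-0.20, adjusted p = 0.0545) and Bbc3 without Th17 WT 1 (adjusted p = 0.0717). Beside the Bcl2a1b values, a gene that B cells and myeloid cells also express, MHC class II genes summed to 14.8 to 16.9 CPM in Th1 WT and 62.3 to 81.5 CPM in Th17 WT, B cell markers to 0.145 to 0.313 and 0.763 to 1.19 CPM, and dendritic cell and macrophage markers to 4.51 to 6.17 and 5.19 to 6.35 CPM. In Th17 WT 2 and Th17 WT 3 the B cell sums lay at or below the level of 3 counts, 1.187 and 3.115 CPM. The part of these markers in the Bcl2a1b difference was not tested. Ranges did not overlap for 7 of 9 members, against 52.1% of all genes, and the median log2 fold change was -0.05 for the members and -0.01 for all genes.

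In KO cells the Th17 groups differed from Th1 in the same directions for the 7 members named above, with Pmaip1 in addition. There 8 of 9 members passed (3 higher, 5 lower), against 53.6% of all genes (26.9% higher, 26.7% lower). Bcl2l11 gave the largest difference of the whole set, 4.49-fold from 53.1 to 11.7 CPM (-2.17 ± 0.14 as log2 fold change ± SE, adjusted p = 2.89e-10, -2.26 to -2.09 over the alternatives). Bcl2 fell from 466 ± 8.62 to 255 ± 49.0 CPM (-0.85 ± 0.15, adjusted p = 0.000739), Bak1 by 0.40 (SE 0.08, adjusted p = 0.000113), Bcl2l1 by 0.24 (SE 0.07, adjusted p = 0.00712) and Pmaip1 by 0.22 (SE 0.08, adjusted p = 0.0231). Bbc3 rose 2.13-fold (1.09 ± 0.18, adjusted p = 1.43e-05), Bcl2a1b by 0.81 (SE 0.24, adjusted p = 0.00564) and Mcl1 by 0.22 (SE 0.06, adjusted p = 0.00428). Bax again did not pass (-0.09, adjusted p = 0.336).

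Without Th17 KO 3 only 5 members passed in KO, with Bcl2l1 (adjusted p = 0.0637), Bcl2a1b (0.49, adjusted p = 0.169) and Pmaip1 (adjusted p = 0.0531) past it no longer. Mcl1 missed the threshold without Th1 KO 3 (adjusted p = 0.0582), and Pmaip1 also with DESeq2 (0.108) and without Th17 KO 1 (0.076) or Th1 KO 2 (0.111). Ranges did not overlap for 8 of 9 members, against 55.7% of all genes, and the median was -0.22 for the members and 0.00 for all genes.

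The genotype and culture comparisons share libraries, so the ratio within a library was set beside them as a description. Bcl2 had 5.57, 5.52 and 6.93 counts per Bcl2l11 count in Th1 WT, a mean of 6.01 ± 0.802 (SD, n = 3), and 8.35, 8.17 and 10.02 in Th1 KO, a mean of 8.85 ± 1.02. In Th17 WT the ratio was 8.53, 4.56 and 6.61 (6.57 ± 1.99), and in Th17 KO it was 24.7, 19.6 and 20.5 (21.6 ± 2.69). The Th17 WT libraries overlapped both Th1 groups although each transcript alone was lower in them, and the Th17 KO libraries lay above all 9 others. The ratio needs no scaling between libraries, and it is of read counts uncorrected for gene length. It rests on 28 Bcl2l11 counts in Th17 WT 3 and on 11 in Th17 KO 2.

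**Figure D3:**
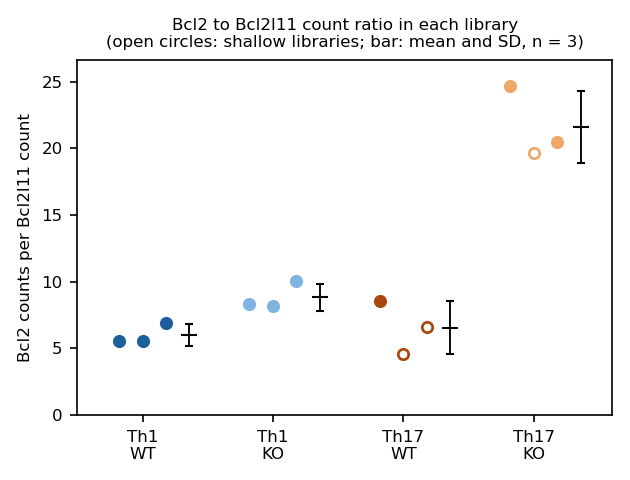
Bcl2 counts divided by Bcl2l11 counts in each of the 12 libraries, by group, on a linear axis from 0, with the group mean and SD (n = 3) and open circles for the shallow libraries. The 3 Th17 KO libraries sit between 19.6 and 24.7, above the other 9, which lie between 4.56 and 10.02.

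The genes most like Bcl2l11 across the 12 libraries, out of 10960 compared by log2 CPM, were Klrc2 (Pearson r = 0.984), which encodes an NK cell receptor and has similar sequence to other Klrc genes, the receptor kinase gene Grk6 (0.982) and the sialyltransferase gene St8sia1 (0.981). Klrc2 averaged 101 CPM (WT) and 78.9 CPM (KO) in Th1, then 49.7 CPM (WT) and 12.2 CPM (KO) in Th17, the same order of groups as Bcl2l11. Those most like Bcl2 were Socs2 (0.990), an inhibitor of cytokine signalling, Retreg1 (0.985) and Rexo5 (0.981). Socs2 averaged 138 and 163 CPM in Th1 WT and KO against 43.3 and 46.9 CPM in Th17 WT and KO. Without the shallow libraries these coefficients were 0.971 to 0.991. The libraries fall into the 4 groups of the design, so such coefficients mostly restate group differences.

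Of 16 other genes of the BCL2 family, 11 could be tested. In Th1 KO 2 were higher than in WT and 0 lower (against 1.69% and 2.92% of all genes), both at low levels. Bmf, a BH3-only gene, rose from 0.694 to 1.83 CPM (1.40 ± 0.36, adjusted p = 0.0231), a call lost without Th1 KO 2 (adjusted p = 0.281), Th1 WT 1 or Th1 WT 2 and with DESeq2. Bcl2l14 had 1 count over all Th1 WT libraries and 4, 6 and 4 in Th1 KO, and its call (adjusted p = 0.018) was lost in the same 4 alternatives. It passed the filter on low counts only through the Th17 libraries, and it is 1 of the 2 genes counted as higher. In Th17 0 of 11 passed between genotypes in edgeR's test, DESeq2 and limma-voom, with 2 at an unadjusted p under 0.05 in edgeR. These were Bmf (0.84 ± 0.29, adjusted p = 0.102) and Bcl2l14 (0.74 ± 0.31, adjusted p = 0.203). Both were higher in every KO than in any WT library, with 6 to 10 and 2 to 5 counts in the shallow libraries. Averaged over both cultures 2 of 11 were higher in KO and 0 lower, against 3.19% and 6.64% of all genes. That count was the same with any 1 library left out. Between cultures 5 of 11 were higher in Th17 and 0 lower in WT, and in KO the counts were also 5 and 0, beside 23.5% of all genes higher and 23.6% lower in WT and 26.9% and 26.7% in KO. Bcl2l14 and Bcl2l15, both among the 5 in WT, reached at most 0.417 and 0.284 CPM in any Th1 library. They passed the filter on low counts only through the Th17 libraries and could not come out lower in Th17, so these counts are partly fixed by the filter. Bcl2l2, which encodes the survival protein BCL-w, rose from 11.7 to 26.0 CPM in WT (1.17 ± 0.13, adjusted p = 3.89e-08) and from 13.0 to 23.3 CPM in KO (0.91 ± 0.12, adjusted p = 4.11e-07). Bmf rose from 0.694 to 4.60 CPM in WT (2.58 ± 0.37) and from 1.83 to 8.46 CPM in KO (2.02 ± 0.27), the opposite direction to Bcl2l11. Bnip3l, a mitophagy receptor gene, rose from 56.7 to 124 CPM in WT (1.18 ± 0.17) and from 51.7 to 132 CPM in KO (1.39 ± 0.16).

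**Figure D4:**
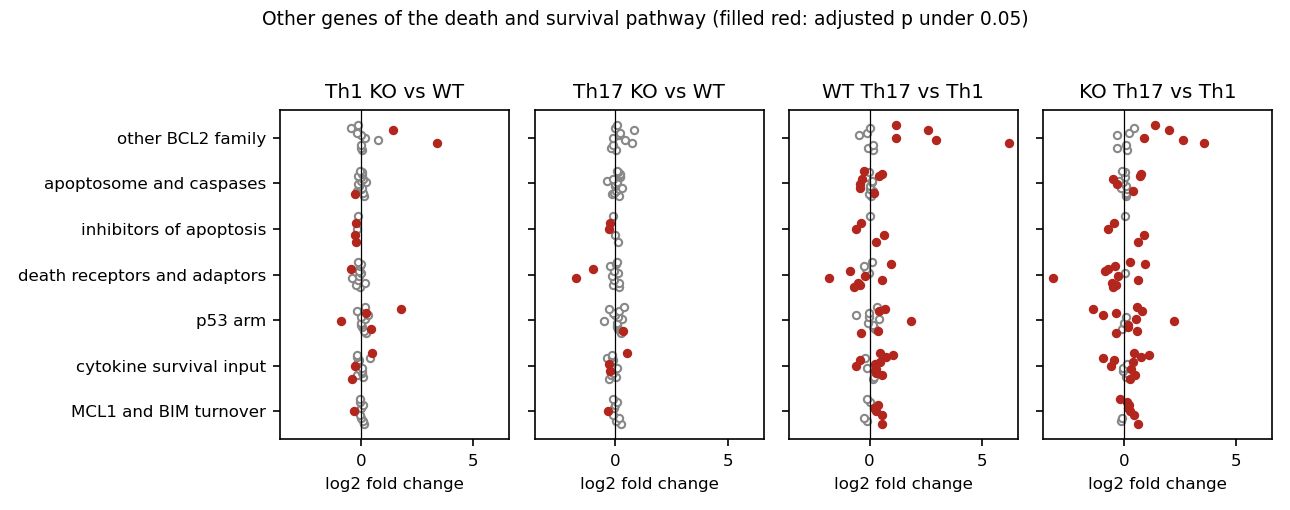
Fitted log2 fold change (linear axis) of each tested gene of 7 other lists of the death and survival pathway in the genotype comparisons (positive means higher in KO) and the culture comparisons (positive means higher in Th17), 3 libraries per group; filled red points had an adjusted p under 0.05. Red points are few in the genotype panels and common in the culture panels, and points beyond 3 in the first row are Bcl2l14, with 1 count in Th1 WT.

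Downstream of the pore, the list of apoptosome, caspase and mitochondrial release genes had 1 of 16 lower in Th1 KO (2.92% of all genes were), Apaf1, the scaffold of the apoptosome (200 to 164 CPM, -0.28 ± 0.06, adjusted p = 0.00331), and 2 without Th1 WT 1 or with limma-voom. It had 0 of 16 past the threshold in Th17 KO in edgeR's test, DESeq2 and limma-voom, with 2 at an unadjusted p under 0.05 in edgeR and 1 higher without Th17 KO 3 or Th17 WT 1. Of these 16 genes 3 were higher and 4 lower in Th17 than in Th1 in WT, and 3 and 2 in KO, beside 23.5% and 23.6% of all genes in WT and 26.9% and 26.7% in KO. Vdac1, a mitochondrial channel gene, rose in Th17 by 0.57 ± 0.08 in WT and 0.78 ± 0.08 in KO, whereas Cycs, which encodes cytochrome c, fell by 0.45 ± 0.08 and 0.31 ± 0.08. In WT the list's counts moved to 1 higher and 1 lower with DESeq2 and to 1 higher and 2 lower without Th17 WT 1. They were 2 and 2 without Th1 WT 3 and 4 and 2 without Th17 WT 2 or Th1 WT 2.

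Inhibitors of apoptosis, which restrain caspases, had 3 of 5 tested genes lower in Th1 KO, against 2.92% of all genes: Birc3 (-0.28 ± 0.08, adjusted p = 0.0311), Birc2 (-0.25 ± 0.07, adjusted p = 0.0374) and Birc6 (-0.22 ± 0.06, adjusted p = 0.0447). The count was 0 without Th1 KO 1, Th1 WT 1 or Th1 WT 2 and 1 without Th1 KO 2 or Th1 KO 3 or with DESeq2. In Th17 KO 2 of 5 were lower (4.02% of all genes were), Birc6 (-0.25 ± 0.07, adjusted p = 0.0232) and Birc5 (-0.29 ± 0.08, adjusted p = 0.026), a count of 0 without Th17 KO 1 or KO 3 or with the Th17 groups alone and of 1 when any 1 Th17 WT library was left out. Birc2 and Birc3 were higher in Th17 than in Th1 in both genotypes (Birc3 by 0.63 ± 0.08 in WT and 0.88 ± 0.08 in KO). In both genotypes Birc6 was lower in Th17, and Birc5 fell by 0.61 ± 0.07 in WT and 0.70 ± 0.07 in KO.

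The death receptor arm, which meets the mitochondrial one at BID, had 2 of 12 genes lower in Th17 KO, against 4.02% of all genes. Fasl, the ligand of Fas, fell from 13.4 to 4.98 CPM (-1.78 ± 0.25, adjusted p = 0.000388). Its call held in all 19 alternatives, with a log2 fold change of -2.19 to -1.11, the smallest without Th17 WT 1 (adjusted p = 0.0389). The other was Tnfsf10, which encodes TRAIL and fell from 20.6 to 9.996 CPM (-0.99 ± 0.19, adjusted p = 0.00162). In Th1 KO 1 of 12 was lower (2.92% of all genes were), Tnfsf10 (-0.47 ± 0.13, adjusted p = 0.0364). This count was 0 with DESeq2 or without Th1 KO 1, KO 2, WT 2 or WT 3 and 2 or 3 without Th17 WT 1, WT 2, KO 1, KO 2 or KO 3. In the culture comparison 2 of 12 were higher and 6 lower in WT, beside 23.5% and 23.6% of all genes, and 3 higher and 8 lower in KO, beside 26.9% and 26.7%. Casp8, the initiator caspase of the receptor complex, fell in Th17 by 0.70 ± 0.07 in WT and 0.49 ± 0.06 in KO, and Traf1 rose by 0.94 ± 0.07 and 0.96 ± 0.07. The WT counts were 1 higher and 4 lower without Th17 WT 1 or with DESeq2, and 1 and 5 without Th1 WT 3. Bid itself gave -0.03 in Th1 and 0.14 in Th17 between genotypes (adjusted p = 0.961 and 0.86).

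Of 14 genes of the p53 arm, which acts through PUMA and NOXA, 3 were higher and 1 lower in Th1 KO, against 1.69% and 2.92% of all genes. Trp73 rose from 2.36 to 8.06 CPM (1.77 ± 0.20, adjusted p = 3.23e-06) and Cdkn1a, a cell cycle inhibitor gene, from 32.5 to 44.3 CPM (0.45 ± 0.09, adjusted p = 0.00206), both in all 19 alternatives. Perp, at 3.38 and 1.72 CPM (-0.92 ± 0.24, adjusted p = 0.0272), and Trp53 itself (0.21 ± 0.06, adjusted p = 0.0497) lost their calls in 5 and 10 alternatives. The counts were 2 higher and 0 lower without Th1 KO 1, KO 3, WT 1 or WT 2. In Th17 KO 1 of 14 was higher (1.81% of all genes were), Ccng1 (0.32 ± 0.07, adjusted p = 0.0109), and 0 without Th17 KO 1, Th17 WT 2 or the shallow libraries. Set against the Th1 cultures, 4 of 14 were higher and 1 lower in WT (23.5% and 23.6% of all genes), and 7 higher and 4 lower in KO (26.9% and 26.7%). Perp rose in Th17 by 1.84 ± 0.22 in WT and 2.23 ± 0.23 in KO. The WT counts were 7 and 1 without Th17 WT 2 or Th1 WT 1 and 3 and 0 without Th17 WT 1.

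Among 15 genes of the cytokine input to this family, the receptor, JAK, STAT and PIM kinase genes through which cytokines sustain survival and the FOXO genes whose products drive Bcl2l11, 1 was higher and 2 lower in Th1 KO, against 1.69% and 2.92% of all genes. Stat5b rose from 91.8 to 128 CPM (0.48 ± 0.07, adjusted p = 2.67e-05), Foxo1 fell from 69.8 to 51.7 CPM (-0.43 ± 0.07, adjusted p = 0.000334) and Il7r from 481 to 400 CPM (-0.27 ± 0.06, adjusted p = 0.00652). The Il7r call was lost without Th1 KO 1 (adjusted p = 0.067). The counts were 2 higher and 5 lower with limma-voom, 2 and 4 with the Th1 groups alone, and 2 and 2 without Th17 KO 1 or KO 3. In Th17 KO Stat5b rose from 128 to 177 CPM (0.50 ± 0.07, adjusted p = 6.52e-05), while Il2rb (-0.23 ± 0.06, adjusted p = 0.026) and Jak1 (-0.27 ± 0.08, adjusted p = 0.0454) were lower, 1 and 2 of 15 against 1.81% and 4.02% of all genes. There the count of lower genes was 0 without Th17 KO 3 or Th17 WT 3 and 1 without Th17 KO 2, Th1 KO 2 or any Th1 WT library. Foxo1 did not pass in Th17 KO (-0.27 ± 0.09, adjusted p = 0.0654). Foxo3, the other FOXO gene, gave 0.10 ± 0.07 in Th1 KO (adjusted p = 0.515) and 0.02 ± 0.08 in Th17 KO (adjusted p = 0.991). The part of either gene in the Bcl2l11 difference was not tested. Of the 15, 9 were higher and 2 lower in Th17 than in Th1 in WT (all genes: 23.5% and 23.6%), and 7 and 3 in KO (all genes: 26.9% and 26.7%). Stat5a rose in Th17 by 1.06 ± 0.07 and 1.10 ± 0.07, and Il7r fell by 0.63 ± 0.06 and 0.56 ± 0.06.

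Genes for the turnover of MCL1 and BIM proteins had 1 of 9 lower in each genotype comparison (2.92% of all genes were lower in Th1 KO and 4.02% in Th17 KO), Gsk3b, a kinase that marks MCL1 for degradation (Th1: -0.31 ± 0.06, adjusted p = 0.00309, Th17: -0.33 ± 0.07, adjusted p = 0.00476). The Th17 call was lost without the shallow libraries (-0.25, adjusted p = 0.0869). By culture, 5 of 9 were higher in Th17 and 0 lower in WT, where 23.5% and 23.6% of all genes were, and 6 higher and 1 lower in KO, where 26.9% and 26.7% were. Fbxw7, a ubiquitin ligase subunit gene of the MCL1 pathway, rose in Th17 by 0.53 ± 0.10 in WT and 0.47 ± 0.09 in KO, beside the higher Mcl1 level. The count of higher genes was 3 without Th17 WT 2 or Th1 WT 3 in WT, and 4 without Th17 KO 1, Th17 KO 2 or Th1 KO 2 in KO.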

How the data were processed

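Poly-A RNA of 12 sorted samples was converted to cDNA with a template-switching kit, tagmented and sequenced as pairs, per the labels' protocols. The submitters' processing notes name GRCm38 (mm10), featureCounts, TopHat2 and Bowtie2. The deposited values are raw counts per Ensembl gene ID. Versions, annotation release, strand setting and treatment of multiply mapping reads are not given in the sources used here. Replicates are numbered in accession order, and the numbers are only names.

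Of 39179 IDs, 37607 (96.0%) were named with GENCODE M21, which also gave positions and exon lengths. Counts were scaled by TMM and filtered with filterByExpr over the 4 groups in edgeR 4.0.16, leaving 12189 genes. Tests were edgeR's quasi-likelihood F-tests (robust) on all 12 samples, adjusted by Benjamini-Hochberg over all genes separately for the 6 comparisons, at a threshold of 0.05. SE is the absolute log2 fold change over the root of F. Counting intervals and floors cover counting error only. The test was tested on simulated counts in which a small share of genes changed and the others had the same mean in all groups. Of genes changed 1.5-fold it recovered 66.2% for genotype in Th1, 48.3% for genotype in Th17 and 56.9% for culture in WT. Of genes changed 2-fold it recovered 87.9%, 85.5% and 80.6%. Changes smaller than 1.5-fold were not simulated. In the data 47.1% of genes passed between cultures in WT, unlike in the simulation, so the recovered shares need not hold for that comparison.

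Alternatives, 19 in all for a comparison of groups, were DESeq2 1.42.0, limma-voom (limma 3.58.1) with sample weights, RLE size factors, counts left unfiltered, only the groups compared, each sample left out in turn, no shallow libraries, and no dominant ID. All members are named; from each other list, examples were taken from the up to 4 genes of smallest p past the threshold. Bid, Foxo3, Foxo1 in Th17, Bcl2l15 and the Bcl2l14 counts were chosen after their values were seen. Members, lists and tests were chosen with earlier results of these data known. Promoter windows are from RefSeq on GRCm38.p6. Python 3.11.15, pandas 2.3.3, matplotlib 3.10.9 and R 4.3.3 were used. The summed Th17 markers are not reported here.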

Additional observations from a re-analysis of the deposited data

Results flagged for a closer look

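For 3 genes the genotype difference itself differed between Th17 and Th1 cells in edgeR's quasi-likelihood test of the interaction. For Bcl2l11 the Th17 difference exceeded the Th1 difference by -1.11 ± 0.19 (log2 difference ± SE, adjusted p = 0.00721), with KO below WT in both cultures. Leaving out Th17 KO 3 gave -1.03 (adjusted p = 0.0599).

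For the death ligand gene Fasl the interaction was -1.36 ± 0.28 (adjusted p = 0.04). It lost its call in 9 of 18 alternatives, and ranged from -1.77 to -0.69 with an adjusted p of up to 0.421, the weakest value being that without Th17 WT 1.

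For Trp73, which encodes a p53 family factor, the interaction was -2.09 ± 0.36 (adjusted p = 0.00275), with 2.36 and 8.06 CPM in Th1 WT and KO against 3.98 and 2.47 CPM in Th17 WT and KO. It lost its call without Th17 WT 1 (adjusted p = 0.137), 1 of the 17 alternatives that gave an adjusted p. DESeq2 gave none for it.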

How the results depend on the processing

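Of the fitted differences of the 9 members recomputed under the alternatives, 937 kept their direction and side of the threshold, 29 lost a call, 2 gained one and 21 changed sign, and the cause was not tested. Left out of these counts is Bak1 averaged over cultures, at 0.00 and -0.06 to 0.05 over the alternatives, which has no direction to keep. All 21 were differences that had not passed. With 1 library left out at a time, the log2 fold change ranged from -0.01 to 0.16 for Bbc3 in Th1, from -0.08 to 0.33 for Bcl2 and -0.11 to 0.04 for Bak1 between genotypes in Th17, from -0.14 to 0.04 for Bax between cultures in WT and from -0.02 to 0.19 for Bcl2 averaged over cultures. In the interaction it ranged from -0.12 to 0.29 for Bcl2, from -0.40 to 0.29 for Bcl2a1b and from -0.14 to 0.05 for Bax. Without the shallow libraries the sign changed for Bcl2 between genotypes in Th17 (-0.10), averaged (-0.02) and in the interaction (-0.15), for Bax (0.04) and Pmaip1 (0.03) between cultures in WT and for Bcl2a1b in the interaction (0.19). Members called in Th17 between genotypes numbered 1 with limma-voom and 1 with the Th17 groups alone. Over all genes, the Th1 genotype count of 562 became 306 with DESeq2, 1074 with limma-voom and 922 with the Th1 groups alone. The Th17 count of 711 became 463 with limma-voom, 356 with the Th17 groups alone and 319 without the shallow libraries, and the interaction count of 72 became 207 with no filter on low counts.

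With 1 library left out at a time, the members called ranged from 1 to 1 (genotype in Th1), 1 to 4 (genotype in Th17), 6 to 7 (culture in WT), 5 to 8 (culture in KO), 3 to 5 (averaged genotype) and 0 to 1 (interaction). Over all genes the ranges were 260 to 679, 411 to 713, 4197 to 5892, 5551 to 6683, 935 to 1215 and 38 to 108. No paired analysis was possible because the labels give no replicate numbers shared between groups. WT and KO cells shared cultures, so their libraries may be paired, and the tests left out any such pairing. Summing the Bcl2a1 copies was not run: Bcl2a1a and Bcl2a1d were not analysed here, and Bcl2a1c had 1 count over all libraries, so Bcl2a1b was not checked against its copies. Depth limits Bbc3 and Bcl2a1b most, with 5 to 31 counts in each shallow library. It also limits Bcl2l11, with 120 counts in Th17 WT 2, 28 in Th17 WT 3 and 11 in Th17 KO 2.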
